A study of Mus musculus with 2 samples.

Results

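Genes that regulate fetal haemoglobin and fetal identity of blood cells were followed across erythroid progenitors of the mouse fetal liver: Bcl11a, Sox6, Zbtb7a, Lin28b, Igf2bp1, Igf2bp2, Igf2bp3, Hmga2 and Hmga1. These 9 were taken by name from 17608 genes in the deposited table, and all 9 were detected. The cells came from C57BL/6 embryos at E14.5, and per the labels they were low in the surface proteins CD71 and CD24. CFU-E, colony-forming units, are committed red cell progenitors that arise from earlier progenitors, the burst-forming units or BFU-E. A library of 904 cells carried antibody-linked hashtags for FACS CFU-E and FACS BFU-E (fluorescence-activated sorting) and for PE-high and PE-low, taken here to be the fractions of the magnet method that the labels name. A second library of 2453 cells was stained with barcoded antibodies against CD117 and CD71 (CITE-seq), and the deposited cell table names its cells CS CFUE, CS BFUE or unknown. All groups share the strain, the age and the tissue. No source used here gives the number of embryos in each pool, the gates, or what PE and CS stand for. Growth with dexamethasone or methanol is also described, without saying whether the sequenced cells went through it.

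The FACS CFU-E pool held 167 cells and 6232350 unique molecular identifiers (UMIs, each marking 1 captured transcript), FACS BFU-E 233 cells and 7374761 UMIs, PE-high 294 and 11003022, and PE-low 208 and 7084148. CS CFUE held 195 cells and 7317861 UMIs, CS BFUE 122 and 2968491, and 2136 CITE-seq cells and 2 hashed cells were in no pool. No cell barcode was shared (0 between the libraries). All 10 erythroid markers were detected in every pool, with the exception of Alas2, listed at 0 in CS BFUE. The earlier pools also held cells with markers of other blood cells, mainly of granulocytes. The marker lists of other cell types cover granulocytes and monocytes, mast cells and basophils, megakaryocytes, lymphoid cells, hepatocytes, and endothelium and stroma. Cells with at least 2 UMIs per 10000 over these lists, from here on cells with other-type markers, made up 1 of 167 cells in FACS CFU-E against 102 of 233 in FACS BFU-E. They made up 21 of 294 in PE-high and 75 of 208 in PE-low, and 7 of 195 in CS CFUE and 57 of 122 in CS BFUE. The summed level of the 18 granulocyte and monocyte markers in the table was 9.63 CPM (UMIs of the gene per 1000000 UMIs of the pool) in FACS CFU-E against 1557 in FACS BFU-E, 319 in PE-high and 1058 in PE-low, and 20.4 in CS CFUE and 772 in CS BFUE. Of the 18, 6 were at 0 in FACS BFU-E, among them Ltf and Camp, and Mpo was the most abundant. In CS CFUE the hepatocyte markers summed to 165 CPM, above the granulocyte and monocyte markers, and in CS BFUE to 34.7 CPM. Stage ratios of the 9 genes between pools are given with and without cells with other-type markers. Where a value below is given for all cells alone, the value without these cells is not shown.

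These genes meet in 2 circuits. Bcl11a, Sox6 and Zbtb7a encode DNA-binding repressors: in human erythroid cells BCL11A and ZBTB7A (also called LRF) silence the fetal gamma-globin genes, and in mice Bcl11a and Sox6 silence the embryonic beta-like globin genes. Lin28b encodes an RNA-binding protein of fetal cells that blocks the maturation of let-7 microRNAs. The let-7 family in turn represses Hmga2, Lin28b and Igf2bp transcripts, so that Lin28b keeps these oncofetal genes active. The Igf2bp genes encode RNA-binding proteins that stabilise bound messages, and Hmga2 and Hmga1 encode small chromatin proteins that bind AT-rich DNA. In fetal haematopoietic stem cells of mice, Lin28b and Hmga2 are known as parts of the fetal programme of self-renewal and lineage choice.

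The let-7 family is shown because its shared seed defines the circuit, although mature microRNAs are not captured by this chemistry and were not analysed here. The seed, bases 2 to 8, is in capitals. The sequences are from RefSeq on GRCm38.p6, the assembly that mm10 denotes.
mmu-let-7a-5p (chr13:48538239-48538260, minus strand): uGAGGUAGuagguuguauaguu
mmu-let-7d-5p (chr13:48536078-48536099, minus strand): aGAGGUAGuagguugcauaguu
mmu-let-7g-5p (chr9:106178846-106178867, plus strand): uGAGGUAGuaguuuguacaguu
mmu-miR-98-5p (chrX:151913229-151913250, plus strand): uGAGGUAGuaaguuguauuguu
All 9 mature 5p names of let-7 and miR-98 in the table carried the seed GAGGUAG, and 11 of 1679 mature names in the table did.

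Promoter sequence is shown for Zbtb7a, past 1.5-fold higher in all 3 stage comparisons below, and for the pair with the largest differences toward the earlier stage, Hmga2 and Igf2bp2. Each is the 250 bases before a transcript start in the promoter table (RefSeq, GRCm38.p6), written 5′ to 3′ on the gene's strand. The Zbtb7a window lies inside the span given for that gene below, so it precedes a start other than the outermost one. The same holds for the Lin28b, Bcl11a, Igf2bp3 and Sox6 windows named with them. An Hmga1 window, 27556354 to 27556603, runs past the start of that gene's span. Capitals mark 2 motifs searched on both strands: AGATAA, a form of the GATA factor motif, and CCNCNCCCN, a form of the motif of Krüppel-like factors.
Zbtb7a (chr10:81136021-81136270, plus strand): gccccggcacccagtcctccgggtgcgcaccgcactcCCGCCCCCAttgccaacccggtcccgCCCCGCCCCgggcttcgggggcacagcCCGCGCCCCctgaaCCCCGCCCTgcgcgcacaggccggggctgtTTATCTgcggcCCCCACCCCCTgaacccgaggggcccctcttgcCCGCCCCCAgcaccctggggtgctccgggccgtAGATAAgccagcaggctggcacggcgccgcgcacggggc
Hmga2 (chr10:120476470-120476719, minus strand): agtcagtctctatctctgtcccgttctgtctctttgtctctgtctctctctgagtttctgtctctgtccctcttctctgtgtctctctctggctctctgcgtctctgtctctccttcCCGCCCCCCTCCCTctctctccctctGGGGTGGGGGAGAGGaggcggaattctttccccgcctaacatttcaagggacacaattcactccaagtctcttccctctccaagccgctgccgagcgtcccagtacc
Igf2bp2 (chr16:22163300-22163549, minus strand): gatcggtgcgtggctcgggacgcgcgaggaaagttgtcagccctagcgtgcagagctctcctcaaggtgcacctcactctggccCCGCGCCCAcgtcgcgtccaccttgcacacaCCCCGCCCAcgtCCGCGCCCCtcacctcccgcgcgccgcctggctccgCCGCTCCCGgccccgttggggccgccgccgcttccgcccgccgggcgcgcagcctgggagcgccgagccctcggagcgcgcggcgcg
The Zbtb7a window held 2 matches to AGATAA and 7 to CCNCNCCCN, matches that may overlap. The Hmga2 and Igf2bp2 windows each held 0 and 4. Of 32851 promoter windows of this length, 9.99% held AGATAA and 45.8% held CCNCNCCCN. A window was found for 8 of the 9 genes. Elsewhere among them, Lin28b held 2 matches to AGATAA and 0 to CCNCNCCCN, and Bcl11a 0 and 8. Igf2bp3 held 0 and 5, each Hmga1 window 0 and 2, and the several Sox6 windows 0 to 1 and 0 to 2. GC content was 78% in the Zbtb7a, 77.2% in the Igf2bp2 and 56.4% in the Hmga2 window, beside a median of 52.4% over all windows.

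Bcl11a (chromosome 11, 24076564 to 24173558) was found in 82.4 to 98.5% of the cells of each pool, at 15000 UMIs per cell, and stood a little higher in the later pools. Its level was 253 CPM in FACS CFU-E against 205 in FACS BFU-E, 255 in PE-high and 206 in PE-low, and 230.1 in CS CFUE and 179.6 in CS BFUE. The later pool of each pair was the higher one, and the 95% exact Poisson intervals of each pair did not overlap. The ratios were 1.23 for the FACS pair (95% exact conditional binomial interval 1.15 to 1.33), 1.24 for the PE pair (1.16 to 1.32) and 1.28 for the CS pair (1.16 to 1.42), all short of 1.5-fold. Without cells with other-type markers the FACS, PE and CS ratios were 1.03 (0.955 to 1.12), 1.11 (1.04 to 1.19) and 1.02 (0.909 to 1.14). Each pool is 1 sample without replicates, so these intervals cover counting error only, no p-value was computed, and 1.5-fold is a fixed size and not a test. A pool's level also does not tell fewer expressing cells from less RNA per cell.

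Sox6 (chromosome 7, 115470872 to 116040776) was low in the earlier pools and present in each later pool. It stood at 19.6 CPM in FACS CFU-E against 1.63 in FACS BFU-E, at 24.4 in PE-high and 2.54 in PE-low, and at 12.03 in CS CFUE and 2.36 in CS BFUE. The 3 earlier pools, with 12, 18 and 7 UMIs, lay below every later pool. The Sox6 ratio was 12.03 for the FACS pair (6.64 to 23.9) and 9.59 for the PE pair (5.95 to 16.4). In the CS pair the ratio was 5.10 (2.37 to 13.1), but its mean over the pair was under the minimum of 10 CPM, so it was not counted there. It passed that minimum in the other pairs only through the later pool, which fixes the direction of its call. With cells with other-type markers left out, the ratios were 22.2 (8.45 to 82.7), 8.27 (4.92 to 14.98) and 2.70 (1.25 to 6.94). With each cell thinned to 15000 UMIs, 22.6% of FACS CFU-E cells (95% Clopper-Pearson interval 16.4 to 29.7) and 1.78% of FACS BFU-E cells (0.486 to 4.49) held a Sox6 UMI. Unthinned, the shares were 41.3% in FACS CFU-E against 4.29% in FACS BFU-E, at median depths of 38377 and 31594 UMIs per cell in those pools. Thinning left out shallower cells, 3 in FACS CFU-E against 8 in FACS BFU-E, 2 in PE-high and 3 in PE-low, 0 in CS CFUE and 3 in CS BFUE, and 80 CITE-seq cells of no pool.

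Zbtb7a (chromosome 10, 81135225 to 81152222) was higher in all 3 later pools. Its level was 119 CPM in FACS CFU-E against 66.6 in FACS BFU-E, 119 in PE-high and 67.2 in PE-low, and 98.0 in CS CFUE and 49.2 in CS BFUE. No later pool overlapped an earlier one. The ratios were 1.79 (1.59 to 2.01), 1.77 (1.60 to 1.97) and 1.99 (1.67 to 2.40) for the FACS, PE and CS pairs. With cells with other-type markers left out they were 1.66 (1.45 to 1.89), 1.64 (1.46 to 1.84) and 1.67 (1.35 to 2.09). Of the 3 repressors, Zbtb7a was thus the only one past 1.5-fold in all 3 stage comparisons with and without those cells, among the genes that passed the minimum level. Sox6 had larger ratios in every pair, and only its level in the CS pair kept it from that count.

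Lin28b (chromosome 10, 45376617 to 45486314) did not differ with stage beyond counting error in any of the 3 pairs. It stood at 44.8 CPM in FACS CFU-E against 44.1 in FACS BFU-E, at 43.9 in PE-high and 42.1 in PE-low, and at 28.7 in CS CFUE and 30.0 in CS BFUE. The 4 hashed pools lay together and the CITE-seq pools lay below them. The ratios were 1.02 (0.863 to 1.20), 1.04 (0.901 to 1.21) and 0.957 (0.744 to 1.24) and each interval held 1. Without cells with other-type markers they were 1.01 (0.839 to 1.22), 0.984 (0.835 to 1.16) and 0.992 (0.723 to 1.38). Its paralog Lin28a, which also blocks let-7, had 0 UMIs in FACS CFU-E against 2 in FACS BFU-E, 1 in PE-high and 3 in PE-low, and 0 in both CS pools.

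Igf2bp1 (chromosome 11, 95957163 to 96005944) had like levels in the hashed pools and differed in the CITE-seq pools. The values were 92.4 CPM in FACS CFU-E against 89.9 in FACS BFU-E, 85.4 in PE-high and 88.4 in PE-low, and 59.99 in CS CFUE and 38.1 in CS BFUE. The ratios were 1.03 (0.918 to 1.15) for the FACS pair, 0.967 (0.873 to 1.07) for the PE pair and 1.58 (1.28 to 1.956) for the CS pair. Only the CS interval lay wholly above 1. After leaving out cells with other-type markers, the CS ratio was 2.27 (1.67 to 3.16), from 427 UMIs in CS CFUE and 45 in CS BFUE, while the FACS and PE ratios were 0.974 and 0.943.

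Igf2bp2 (chromosome 16, 22059009 to 22163299) was higher in the earlier pools. It stood at 1.76 CPM in FACS CFU-E against 26.8 in FACS BFU-E, at 4.91 in PE-high and 22.6 in PE-low, and at 2.05 in CS CFUE and 27.6 in CS BFUE. All earlier pools lay above all later pools. It was 15.2-fold lower in FACS CFU-E than in FACS BFU-E (8.32 to 31.0), 4.60-fold lower in PE-high (3.36 to 6.39) and 13.5-fold lower in CS CFUE (7.71 to 25.2). It passed the minimum level only through the earlier pool, which fixes the direction of its call. Cells with other-type markers held 66.2% of its UMIs in FACS BFU-E, 75.6% in CS BFUE and 53.1% in PE-low. Without them it was still 8.37-fold (4.39 to 17.6), 7.04-fold (4.37 to 11.8) and 6.43-fold (3.04 to 14.1) lower in the later pool, with the earlier pools at 14.8, 15.5 and 11.9 CPM. At those levels the mean of each pair was under 10 CPM, so it was then not counted as a call.

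Igf2bp3 (chromosome 6, 49085218 to 49215469) was lower in the later pools by a smaller factor. It stood at 32.6 CPM in FACS CFU-E against 73.1 in FACS BFU-E, at 39.7 in PE-high and 78.1 in PE-low, and at 34.2 in CS CFUE and 79.8 in CS BFUE. The 3 later pools lay within 32.6 to 39.7 CPM and the 3 earlier ones within 73.1 to 79.8 CPM. It was 2.24-fold (1.91 to 2.65), 1.97-fold (1.73 to 2.23) and 2.34-fold (1.95 to 2.80) lower in FACS CFU-E, PE-high and CS CFUE. Without cells with other-type markers it was 1.78-fold (1.48 to 2.16), 1.86-fold (1.59 to 2.16) and 1.76-fold (1.37 to 2.23) lower.

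Hmga2 (chromosome 10, 120361268 to 120476469) had the largest stage ratio of the 9 genes in the FACS and CS pairs with all cells. It stood at 5.29 CPM in FACS CFU-E against 154 in FACS BFU-E, at 24.8 in PE-high and 136 in PE-low, and at 8.88 in CS CFUE and 141 in CS BFUE. Its 3 earlier pools were close to each other and its 3 later pools were not. It was 29.2-fold lower in FACS CFU-E (20.6 to 42.6), 5.46-fold lower in PE-high (4.77 to 6.27) and 15.9-fold lower in CS CFUE (12.2 to 20.9). In the FACS and CS pairs it passed the minimum only through the earlier pool, which fixes the direction of its call there. Cells with other-type markers held 83.6% of its UMIs in FACS BFU-E, and in PE-low, CS BFUE and PE-high 83.4, 89.0 and 77.3%. In FACS BFU-E, 74 of 233 cells held at least 5 Hmga2 UMIs each, 83.6% of all its UMIs, and 63 of those 74 were cells with other-type markers. With all cells with other-type markers left out, the level was 4.02 CPM in FACS CFU-E against 41.4 in FACS BFU-E, 5.92 in PE-high and 32.8 in PE-low, and 6.54 in CS CFUE and 27.3 in CS BFUE. Hmga2 was then 10.3-fold (6.75 to 16.3), 5.54-fold (4.11 to 7.56) and 4.18-fold (2.71 to 6.43) lower in the later pool. The largest ratio was then that of Sox6 in the FACS pair, at 22.2, and that of Igf2bp2 in the CS pair, at 6.43-fold lower.

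Hmga1 (chromosome 17, 27556574 to 27563672) differed least among the genes that were lower in all 3 later pools. It stood at 33.7 CPM in FACS CFU-E against 52.9 in FACS BFU-E, at 33.7 in PE-high and 45.2 in PE-low, and at 29.7 in CS CFUE and 39.4 in CS BFUE. It was 1.57-fold lower in FACS CFU-E (1.32 to 1.87), 1.34-fold lower in PE-high (1.15 to 1.56) and 1.33-fold lower in CS CFUE (1.05 to 1.67). After leaving out cells with other-type markers it was 1.39-fold (1.14 to 1.69), 1.40-fold (1.18 to 1.66) and 1.22-fold (0.901 to 1.63) lower, short of 1.5-fold in each pair. Hmga1b, a near-identical copy listed on its own, had at most 6 UMIs in any of these 6 pools, and how reads were split between the copies is uncertain.

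**Figure D1:**
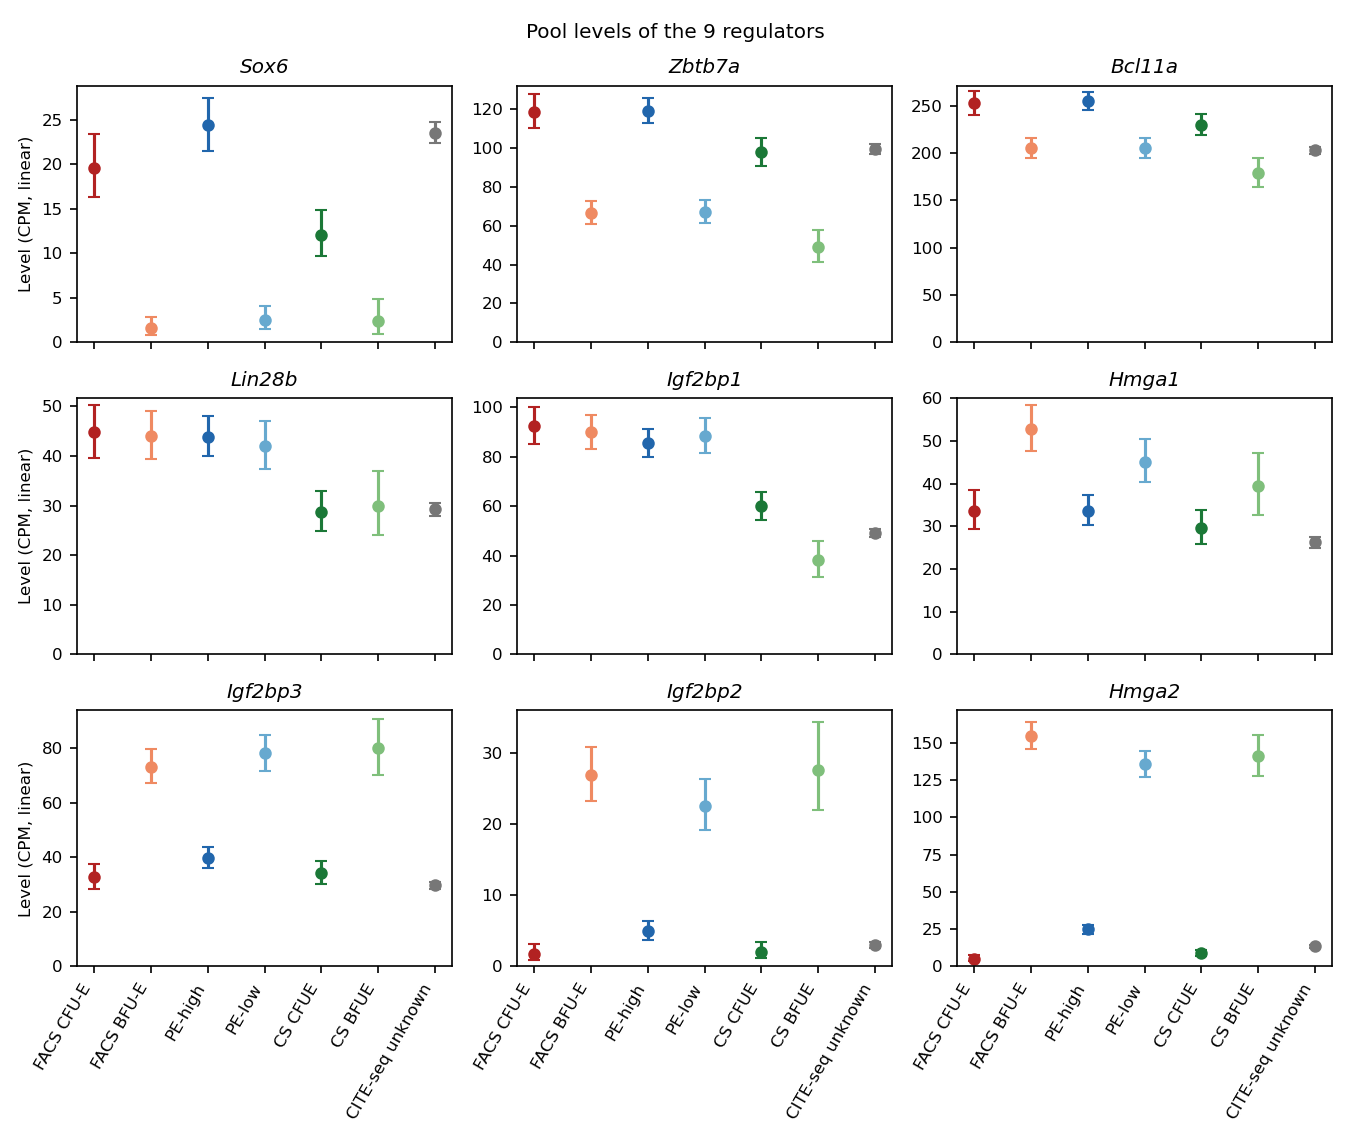
Level of each gene (y axis, CPM of summed UMIs, linear from 0) in the 6 pools and in the CITE-seq cells of no pool (x axis); points are pool levels and bars 95% exact Poisson intervals, which cover counting error only. Sox6 and Zbtb7a are higher in each later pool, Igf2bp3, Igf2bp2 and Hmga2 lower, and Lin28b lies at 42.1 to 44.8 CPM in the hashed pools and 28.7 to 30.0 in the CS pools.

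Counted together, 6 of the 9 genes lay past 1.5-fold between FACS CFU-E and FACS BFU-E, 2 of them higher in FACS CFU-E and 4 lower. Of all 7262 genes with a mean of at least 10 CPM over the pair, 22.6% lay past 1.5-fold, 8.91% higher in FACS CFU-E and 13.7% lower. Between PE-high and PE-low, 5 of 9 lay past it, 2 higher and 3 lower, against 17.0% of 7253 genes (6.30% higher, 10.7% lower). Between CS CFUE and CS BFUE, 5 of 8 did, 2 higher and 3 lower, against 23.4% of 6900 genes (10.3% higher, 13.1% lower). Sox6 and Igf2bp2, and Hmga2 in the FACS and CS pairs, could pass the minimum only through the pool where they were high, so the count of the genes is not read against these shares. Their median log2 ratios were 0.02, -0.05 and -0.24, beside -0.00334, -0.02 and 0.02 over all genes tested. Leaving out cells with other-type markers, 4 of 8 genes (2 higher, 2 lower) lay past 1.5-fold in the FACS pair, beside 16.6% of all genes (7.33% higher, 9.27% lower). The PE pair had 4 of 8 (2 higher, 2 lower), beside 13.3% (5.62% higher, 7.67% lower). The CS pair had 4 of 7 (2 higher, 2 lower), beside 18.1% (9.04% higher, 9.06% lower). Here too Sox6 in the FACS and PE pairs, and Hmga2 in all 3, passed the minimum only through the pool where they were high. These counts are therefore not read against the shares either.

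**Figure D2:**
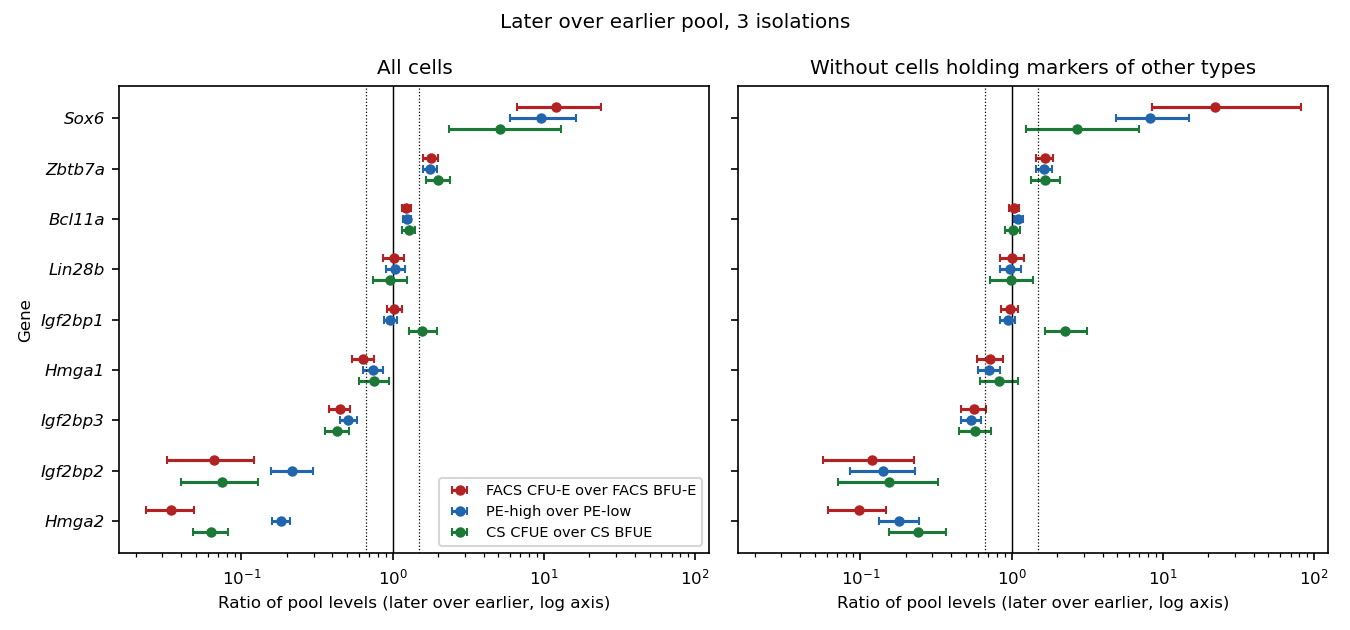
Ratio of the later over the earlier pool (x axis, log scale) for each gene (y axis) in the 3 stage comparisons, with all cells (left) and without cells holding markers of other cell types (right); bars are 95% exact conditional binomial intervals and dotted lines mark 1.5-fold. Hmga2 is the gene whose FACS ratio moves most between the panels, at 29.2-fold and 10.3-fold lower, and Igf2bp1 lies past 1.5-fold only in the CS pair.

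The isolation methods were compared at each stage. Between PE-low and FACS BFU-E, 0 of the 8 genes with enough UMIs lay past 1.5-fold, beside 1.77% of 7440 genes (0.780% higher in PE-low, 0.995% lower). The widest differences of the 8 were those of Igf2bp2, 1.19-fold lower in PE-low (0.960 to 1.47), and Hmga1, 1.17-fold lower (1.01 to 1.36). Between PE-high and FACS CFU-E, 1 of 8 did, beside 1.61% of 6971 genes (1.29% higher in PE-high, 0.316% lower). That gene was Hmga2, at 24.8 CPM in PE-high against 5.29 in FACS CFU-E, and its ratio was 4.69 (3.26 to 6.95). It passed the minimum there only through PE-high, which fixes the direction of this call. In PE-high, 31 of 294 cells held 90% of the Hmga2 UMIs and 1 cell held 34. Without the 21 and 1 cells with other-type markers the levels were 5.92 and 4.02 CPM, a ratio of 1.47 (0.912 to 2.45) and below the minimum level. Of the 7 genes above it, 0 were then past 1.5-fold, beside 0.809% of all genes (0.462% higher in PE-high, 0.347% lower). Between PE-low and FACS BFU-E, 0 of 8 were past it without such cells, beside 1.86% (0.809% higher in PE-low, 1.05% lower). Igf2bp2, below the minimum, stood at 4.91 CPM in PE-high and 1.76 in FACS CFU-E, and at 2.20 and 1.77 without those cells.

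The 2 libraries could also be set side by side at each stage, a comparison chosen after the values were seen, in which sorting, staining and library preparation cannot be told apart. Igf2bp1 stood at 38.1 CPM in CS BFUE and 89.9 in FACS BFU-E, 2.36-fold lower (1.93 to 2.91), the 1 of 8 genes past 1.5-fold, where 19.2% of 7286 genes were (3.82% higher in CS BFUE, 15.4% lower). Relative to the median of all genes tested, which was itself 1.19-fold lower in CS BFUE (log2 -0.25), Igf2bp1 was 1.98-fold lower (1.62 to 2.44), still the 1 of 8 past 1.5-fold, where 12.4% of genes were (7.88% higher in CS BFUE, 4.57% lower). In CS CFUE, Igf2bp1 was 1.54-fold lower (1.36 to 1.75), Lin28b 1.56-fold (1.30 to 1.87) and Sox6 1.63-fold (1.23 to 2.17) lower than in FACS CFU-E, 3 of 7 genes, where 12.2% of 6768 genes were past it (3.00% higher in CS CFUE, 9.18% lower). The median of all genes was 1.18-fold lower in CS CFUE (log2 -0.24). Relative to it, Igf2bp1 was 1.31-fold (1.15 to 1.48), Lin28b 1.32-fold (1.10 to 1.59) and Sox6 1.38-fold (1.04 to 1.84) lower, so 0 of the 7 lay past 1.5-fold, where 7.73% of genes did (5.95% higher in CS CFUE, 1.77% lower). Hepatocyte markers, 8 in the table, summed to 34.7 CPM in CS BFUE against 4.07 in FACS BFU-E, and to 165 in CS CFUE against 2.73 in FACS CFU-E, and their part in these differences was not tested.

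Cells were next ordered by stage within each library, so that the cells of no pool could be read too. The stage score is the mean natural log value of 20 late erythroid genes minus that of 15 early progenitor genes, none of them a member, and each library was split into 5 bins of equal size from early to late. The bins are ranges of a score and not cell types: between 11 and 28 cells of the hashed library, and between 58 and 127 of the CITE-seq library, lay within 0.02 of each cut. In the earliest bin 169 of 180 hashed cells and 249 of 490 CITE-seq cells were cells with other-type markers. From bin 1 to bin 5 of the CITE-seq library, Sox6 stood at 2.10, 4.43, 10.3, 24.7 and 69.1 CPM, and in the hashed library at 1.36, 2.17, 2.29, 11.6 and 45.3 CPM. Zbtb7a was higher in each later bin, at 63.2, 86.5, 102, 114 and 117 CPM in the CITE-seq library and 47.7, 69.8, 90.1, 117 and 138 CPM in the hashed one. Sox6 gained most in the last 2 bins of both libraries, and Zbtb7a showed no such common course, with its smallest steps late in the CITE-seq library and steps of like size throughout the hashed one.

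The oncofetal genes had separate courses over the same bins. Hmga2 stood at 376, 49.5, 16.8, 5.66 and 2.38 CPM from bin 1 to bin 5 of the hashed library and at 86.0, 9.18, 5.11, 1.33 and 1.11 CPM in the CITE-seq library. Igf2bp2 followed it, at 45.6, 21.4, 5.59, 2.32 and 0.745 CPM in the hashed library and 18.1, 2.34, 0.711, 0.333 and 0.297 in the CITE-seq library. Igf2bp3 was lower in each later bin, at 106, 66.8, 51.5, 37.4 and 25.5 CPM in the hashed library and 70.4, 39.0, 24.8, 18.9 and 12.1 CPM in the other. Hmga1 stood at 53.1 CPM in the first and 24.9 in the last hashed bin, and at 38.2 and 14.4 in those of the CITE-seq library. Igf2bp1 was lowest in the last bin, at 86.3, 84.5, 103, 99.1 and 67.8 CPM (hashed) and 52.8, 62.5, 52.9, 47.7 and 30.5 CPM (CITE-seq). With cells with other-type markers left out and bins drawn again, the last bin was lower than the first by 30.2-fold for Igf2bp2 in the hashed library, against 61.1-fold with all cells, and by 22.7-fold in the CITE-seq library, against 61.0-fold. For Igf2bp3 the same values were 2.94-fold against 4.15-fold, and 3.97-fold against 5.82-fold. Those of Hmga1 were 2.20-fold against 2.13-fold, and 2.50-fold against 2.65-fold, and those of Igf2bp1 1.30-fold against 1.27-fold, and 1.91-fold against 1.73-fold. Of the 195 CS CFUE cells 63, 77 and 43 were in bins 2, 3 and 4, and of the 122 CS BFUE cells 116 were in bin 1, which also held 369 cells of no pool.

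Lin28b was flat in the hashed library, at 39.9, 43.4, 45.6, 44.8 and 43.7 CPM, and its last bin was 1.28-fold lower than the first in the CITE-seq library (1.10 to 1.49), at 24.0 and 30.8 CPM. Leaving out cells with other-type markers it was 1.53-fold lower there (1.32 to 1.78), and the hashed ratio was 0.992 (0.817 to 1.20). Bcl11a was lowest in the earliest bin, at 135, 235, 247, 262 and 259 CPM in the hashed library and 165, 214, 216, 219.8 and 200.1 CPM in the CITE-seq library. With cells with other-type markers left out and bins drawn again, the first bin of Bcl11a was at 236 and 214 CPM, close to the bins after it. Sox6 and Zbtb7a kept their direction then: the last over the first bin was 33.7 (16.1 to 84.6) and 24.6 (17.9 to 34.9) for Sox6, and 2.18 (1.91 to 2.50) and 1.58 (1.46 to 1.72) for Zbtb7a, in the hashed and the CITE-seq library. Hmga2 was 157-fold lower in the last than in the first hashed bin with all cells (96.7 to 276) and 22.9-fold lower without those cells (12.9 to 44.9). For the CITE-seq library the same values were 77.3-fold (46.7 to 139) and 18.3-fold (10.0 to 37.2).

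**Figure D3:**
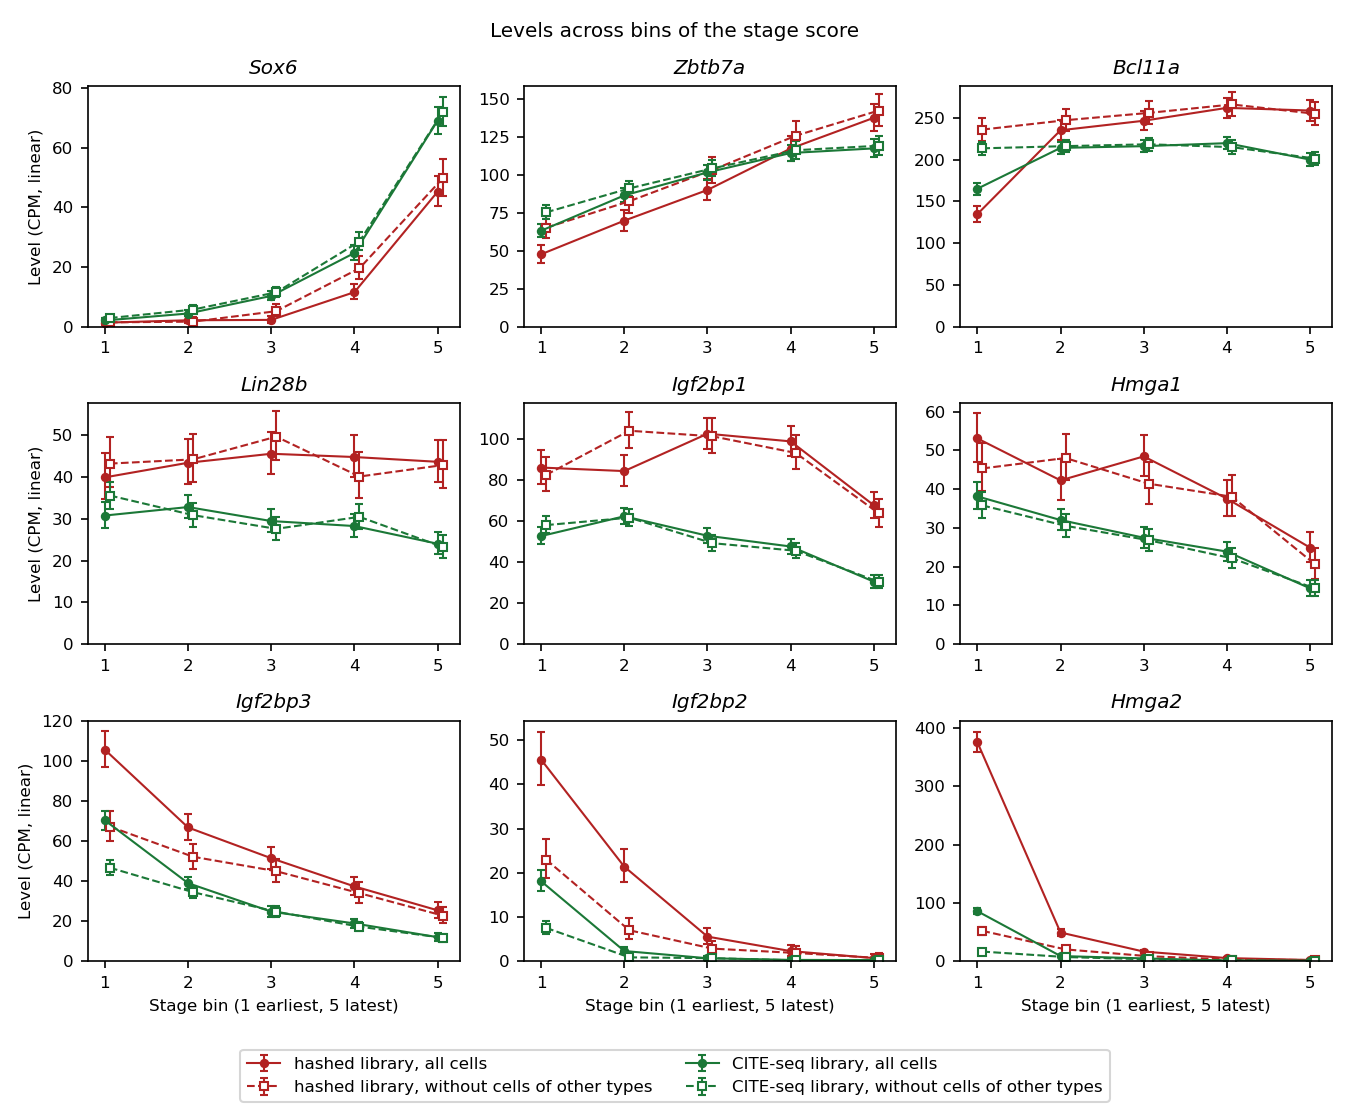
Level of each gene (y axis, CPM, linear from 0) in 5 equal bins of cells ordered from early to late by the stage score (x axis), in the hashed library (red) and the CITE-seq library (green), with all cells (solid) and without cells holding markers of other cell types (dashed); bars are 95% exact Poisson intervals. Sox6 reaches 45.3 and 69.1 CPM in the last bin, Hmga2 and Igf2bp2 are highest in the first, and the Bcl11a curve loses its low first bin when those cells are left out.

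The 8 globin genes fell into 2 groups by their level in the later cells. Hbb-bh1, Hbb-y, Hba-x and Hbb-bh2 stood at 3.78 CPM or below in every bin of both libraries with all cells. Hba-a1, Hba-a2, Hbb-bs and Hbb-bt, the adult genes, had FACS CFU-E over FACS BFU-E ratios of 40.3 (27.5 to 61.5), 39.05 (20.97 to 82.2), 14.95 (11.8 to 19.1) and 13.04 (10.6 to 16.3). Without cells with other-type markers these ratios were 33.4 (21.5 to 55.0), 34.3 (16.5 to 86.0), 14.7 (11.0 to 20.1) and 16.7 (12.4 to 23.1). Hba-a1 and Hba-a2, at 3.66 and 1.36 CPM in FACS BFU-E with all cells, passed the minimum level only through FACS CFU-E. With those cells left out this also held for Hbb-bt, at 9.96 CPM in FACS BFU-E. The direction of these ratios was thereby fixed. Over the bins Hbb-bt stood at 12.02, 13.5, 12.9, 87.6 and 1050.3 CPM from bin 1 to bin 5 of the hashed library, and Hba-a1 at 2.71, 3.84, 10.5, 69.3 and 570 CPM. Across cells the Pearson correlation of Sox6 with Hbb-bt was 0.58 in each library, a description over 904 and 2453 cells that share library and stage. Hba-a1 and Hba-a2, and Hbb-bs and Hbb-bt, are near-identical pairs whose reads may have been split between copies.

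Over whole libraries, which mix early and late cells, an Igf2bp2 UMI was found more often in cells with an Hmga2 UMI. At 15000 UMIs per cell, 32.6% of Hmga2-positive hashed cells held an Igf2bp2 UMI (27.0 to 38.6%) and 6.61% of Hmga2-negative cells did (4.79 to 8.86%). In the CITE-seq library the shares were 26.2% (21.1 to 31.9) and 2.53% (1.90 to 3.29). Within single pools the Igf2bp2 share was also higher in Hmga2-positive cells, in 6 of 6 pools, but the intervals were apart only in PE-high, PE-low and CS BFUE. In PE-low the shares were 37.2% of Hmga2-positive cells (27.5 to 47.8) and 12.6% of the negative ones (7.07 to 20.3), while in FACS BFU-E they were 31.8% (24.0 to 40.5) and 16.1% (9.32 to 25.2). In FACS CFU-E and CS CFUE they rested on 1 of 9 and 2 of 17 Hmga2-positive cells. An Mpo UMI was also more frequent in Hmga2-positive cells, at 46.9 against 8.08% in PE-high. It was found in 53.2 against 11.7% in PE-low and 63.5 against 5.36% in CS BFUE. The mix of cell types is thus not held fixed within a pool. Sox6 went the opposite way over whole libraries, with a UMI in 3.37% of Hmga2-positive and 17.6% of Hmga2-negative hashed cells, and in 6.27 and 25.3% of CITE-seq cells. Within each of the 6 pools the Sox6 intervals overlapped, and in FACS BFU-E the share was 2.27% of Hmga2-positive and 1.08% of Hmga2-negative cells. Lin28b was found in 45.7% of Hmga2-positive and 47.4% of Hmga2-negative hashed cells, intervals that overlap. The correlation of Hmga2 with Igf2bp2 was 0.48 over 904 hashed cells and 0.44 over 2453 CITE-seq cells, and 0.39 and 0.30 without cells with other-type markers. That of Hmga2 with Mpo, the myeloperoxidase of granulocytes, was 0.78 and 0.63 with all cells. Mpo is itself among the markers that choose the cells left out, so no value without them is read.

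Levels also differed between cells with other-type markers and the others. Most such cells lay in the earliest stage bin, 169 in the hashed and 249 in the CITE-seq library. Stage and these markers therefore cannot be told apart in this split. In the hashed library Hmga2 stood at 349 CPM in these 200 cells (333 to 364) and at 16.6 CPM in the 704 others (15.1 to 18.3). Igf2bp2 stood at 43.7 CPM in them against 6.75 in the others, and Igf2bp3 at 104 against 43.9 in the others. The 3 repressors were lower in them, with Bcl11a at 139 CPM against 252 in the others, Zbtb7a at 52.9 against 105 and Sox6 at 1.94 against 15.7. The intervals of Lin28b (41.7 CPM in them, 44.1 in the others) and of Igf2bp1 (84.0 in them, 89.4 in the others) overlapped. In the CITE-seq library Hmga2 stood at 152 CPM in 271 such cells and 6.15 in 2182 others, and Lin28b at 23.6 (19.9 to 27.8) and 29.7 (28.4 to 31.0). Thinned, a Sox6 UMI was found in 2.66% of the hashed cells with other-type markers (0.869 to 6.10) and in 16.2% of the others (13.5 to 19.1), at median depths of 27530 and 37750 UMIs. Within FACS BFU-E, leaving out cells with other-type markers took Bcl11a from 205 to 245 CPM and Zbtb7a from 66.6 to 71.9. Sox6 went the other way there, from 1.63 to 0.885 CPM (12 and 4 UMIs), but from 2.54 to 3.10 in PE-low.

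**Figure D4:**
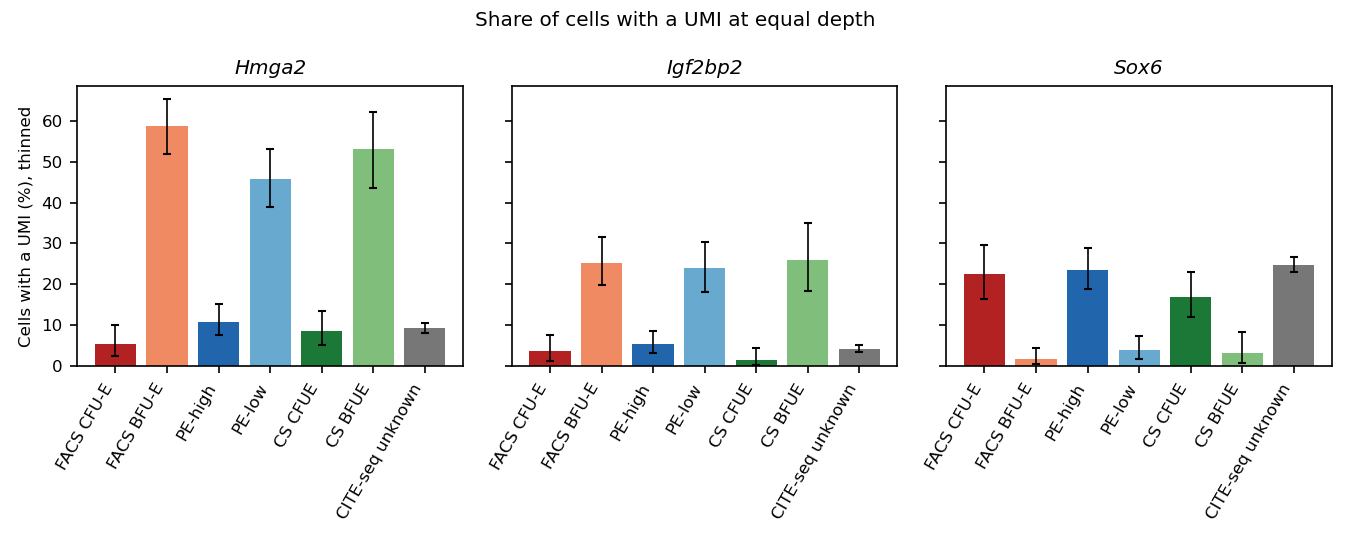
Share of cells with at least 1 UMI of Hmga2, Igf2bp2 and Sox6 (y axis, percent, after thinning each cell to 15000 UMIs) in the 6 pools and the CITE-seq cells of no pool (x axis); bars are shares and whiskers 95% exact Clopper-Pearson intervals. Hmga2 is found in 5.49% of FACS CFU-E and 58.7% of FACS BFU-E cells and Sox6 in 22.6 and 1.78%.

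Other genes of these pathways were read from lists chosen with earlier results of these data known. Their counts stand beside the share of all genes past 1.5-fold either way, 22.6, 17.0 and 23.4% in the FACS, PE and CS pairs. Without cells with other-type markers these shares were 16.6, 13.3 and 18.1%. Several counts lie near or below these shares, and none was tested against them. Genes named from each list had its largest FACS ratios, so their sizes do not stand for the list. Among other regulators of fetal haemoglobin, 5 of 26 were past 1.5-fold higher in FACS CFU-E and 3 lower. Klf1, the erythroid factor that activates Bcl11a and adult beta-globin, stood at 490 CPM in FACS CFU-E against 197 in FACS BFU-E (2.49-fold, 2.34 to 2.65). Myb, a factor of immature progenitors that restrains fetal globin expression in human cells, stood at 108 CPM in FACS CFU-E against 371 in FACS BFU-E, 3.43-fold lower (3.15 to 3.73). Klf3, a repressor in the same family as Klf1, was 2.53-fold higher (2.18 to 2.94), and Eif2ak1, the haem-regulated kinase, 1.76-fold higher (1.52 to 2.06). Without cells with other-type markers 3 were higher and 1 lower of 26. Klf1, Klf3 and Eif2ak1 were then 1.71-fold, 1.85-fold and 1.65-fold higher and Myb 3.65-fold lower. In the PE pair the counts were 4 higher and 1 lower of 25, and 2 and 1 without those cells. The CS pair had 7 higher and 2 lower of 24, and 3 and 1 without them. Of 13 NuRD subunits, the corepressor complex that BCL11A and ZBTB7A recruit, 1 was past 1.5-fold in the FACS pair, Mbd2 at 78.6 CPM in FACS CFU-E against 47.3 in FACS BFU-E, and 0 were without those cells. In the PE pair 0 of 13 were past it, and in the CS pair 1, or 0 without those cells.

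In the list of microRNA processing and let-7 decay, 2 of 20 genes were past 1.5-fold higher in FACS CFU-E and 2 lower, and 1 and 2 without cells with other-type markers. Over all genes tested the share past it either way was 22.6%, and 16.6% without those cells. Ago2, the slicing Argonaute protein, was 1.65-fold higher (1.49 to 1.82), and 1.48-fold without those cells. Tnrc6b, a silencing scaffold, was 1.67-fold higher (1.46 to 1.90), and 1.79-fold without them. Prkra, a partner of Dicer, was 2.26-fold lower (1.77 to 2.90), as it was in PE-high (2.12-fold) and CS CFUE (2.30-fold), and Ago1 was 1.77-fold lower (1.34 to 2.35). Without those cells Prkra was 2.33-fold and Ago1 1.80-fold lower in FACS CFU-E. The PE pair had 1 higher and 1 lower of 20, with and without those cells, and the CS pair 2 and 1, or 1 and 2 without them. Among 23 reported let-7 targets, 6 were past it higher and 6 lower, and 4 and 4 of 22 without those cells. Ccnd1, cyclin D1, stood at 0.802 CPM in FACS CFU-E against 33.8 in FACS BFU-E, 42.1-fold lower (17.8 to 131), and 7.97-fold lower without cells with other-type markers (3.05 to 26.4). Ccnd1 passed the minimum level only through FACS BFU-E, which fixes the direction of its call. Without those cells it was under the minimum, at 0.805 and 6.42 CPM (5 and 29 UMIs). Arid3a, a DNA-binding protein also on the list of fetal haematopoietic genes, was 4.33-fold lower (3.47 to 5.45), and 2.09-fold lower without those cells. Irs2, an adaptor of insulin signalling, was 2.85-fold higher (2.07 to 3.97) and 1.82-fold without those cells. Igf2r, the receptor that clears Igf2, was 2.56-fold higher (1.84 to 3.59), and 1.92-fold without them. With all cells both, at 7.59 and 7.46 CPM in FACS BFU-E, passed the minimum only through FACS CFU-E, which fixes their direction. Without cells with other-type markers this still held for Igf2r, at 9.96 CPM in FACS BFU-E. In the PE pair 6 of 23 were higher and 5 lower, and 4 and 4 of 22 without those cells. The CS pair had 6 higher and 3 lower of 21, and 2 and 3 of 20 without them.

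Of 11 transcripts reported to be bound by Igf2bp proteins, 2 were past 1.5-fold higher in FACS CFU-E and 1 lower, and 1 and 1 without cells with other-type markers: Btrc at 1.61-fold, the proliferation gene Mki67 at 1.57-fold (1.48-fold without those cells), and Myc at 1.956-fold lower (1.76 to 2.18). Over all genes tested in that pair the share past it either way was 22.6%, and 16.6% without those cells. Without those cells Btrc was 1.57-fold higher and Myc 2.09-fold lower. The PE pair had 1 higher and 1 lower of 11, with and without those cells, and the CS pair 0 of 10, or 1 lower without them. Among 7 measured genes of the fetal haematopoietic list, 1 was higher and 3 lower in FACS CFU-E, and 1 and 2 of 6 without those cells. The PE and CS pairs each had 1 higher and 3 lower of 7, and without those cells 1 and 1 of 6 in the PE pair and 1 and 2 of 6 in the CS pair. Dlk1, a fetal Notch-related ligand, stood at 1.60 CPM in FACS CFU-E against 22.0 in FACS BFU-E, 13.7-fold lower (7.26 to 29.1), and 8.71-fold lower without cells with other-type markers. Dlk1 too passed the minimum only through FACS BFU-E, and without those cells it was under it, at 1.45 and 12.6 CPM. Hmgn2, a nucleosome-binding protein, was 2.19-fold lower (2.00 to 2.41), and Hmgb3, a chromatin protein of progenitors, 2.19-fold higher (2.09 to 2.29). Without those cells Hmgn2 was 1.70-fold lower and Hmgb3 1.92-fold higher. In the Sox family, Sox4 stood at 15.1 CPM in FACS CFU-E against 103.6 in FACS BFU-E, 6.87-fold lower (5.54 to 8.60), and 2.93-fold lower without those cells (2.27 to 3.79). Of the 7 paralogs of the members in the table, 0 reached the minimum level in any stage pair.

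The genes most like each member were sought over the 2136 CITE-seq cells of no pool, among 2705 genes with at least 50 CPM, by Pearson correlation of the natural log values. For Sox6 they were Hba-a1 (0.62), Hba-a2 (0.60) and Hbb-bs (0.59). For Bcl11a they were Hdgf (0.40), Ermap (0.37) and Hsp90aa1 (0.37), and for Zbtb7a Cpox (0.28), Ermap (0.26) and Car2 (0.25). For Igf2bp3 they were Arpc1b (0.42), Cyba (0.42) and Nme2 (0.41). For Igf2bp1 (Set, Cdv3 and Prrc2c), Lin28b (Ncl, Set and Hspd1) and Hmga1 (Nme2, Dnajc2 and Myb) the highest correlation was 0.26, which in sparse counts is weak. Bcl11a also correlated with UMIs per cell, at 0.33 over all CITE-seq cells, and its values in those lists share that depth. Hmga2 and Igf2bp2 had a UMI in 14.3 and 6.37% of these cells, under the 20% needed to be searched.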

How the data were processed

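Natural log values of 17608 Ensembl genes in 3357 cells came in 1 table that the authors deposited, with a second table giving each cell's name and 2 corrected principal component coordinates, an unscaled score per the file headers. With the log undone and 1 subtracted each cell summed to 10000. The submitters' processing notes name build mm10, Scanpy and Cell Ranger 4.0.0. Filters and doublet removal: not given in the sources used here. No doublets were called. The deposited values hold no counts, so UMI counts were taken as linear values over the smallest nonzero one of that cell, and 100% of 16419767 values were whole within 0.02. Cells held 6863 to 49971 UMIs. Cells with the barcode suffix of the hashtag names formed the hashed library, and the others the CITE-seq library by elimination.

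UMIs were summed per name of the deposited assignment and given as CPM. A gene entered a comparison with a mean of at least 10 CPM over the pair. A side at 0 counted as 3 UMIs. Intervals are at 95%. The scripts (Python 3.11.15, NumPy 2.4.6, SciPy 1.17.1, pandas 2.3.3) were tested on simulated data. Members and lists were chosen with earlier results of these data known. Of 312 list entries, 299 were in the table. Named list genes are up to 4 per list by size of the FACS ratio, every globin, and the 3 most alike genes per member.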

Additional observations from a re-analysis of the deposited data

Results flagged for a closer look

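Igf2bp1 differed between the 3 stage comparisons. Its log2 ratio was 0.0399 for FACS CFU-E over FACS BFU-E, -0.0487 for PE-high over PE-low and 0.66 for CS CFUE over CS BFUE. It was picked out because the CS pair lay past 1.5-fold while another pair lay on the other side of 1, and the difference was not tested, since each pool is 1 sample.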

How the results depend on the processing

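Nothing here has replicates, so no replicate could be left out. No paired analysis was possible because each pool is 1 sample, so the groups compared share fewer than 2 replicate numbers. The planned search for let-7 sites in 3′ UTRs, with its 8-base alternative, was not run. With a minimum of 50 CPM, members past 1.5-fold were 3 of 5 tested in the FACS pair, 3 of 5 in the PE pair and 3 of 4 in the CS pair, and 0 of 3 between PE-high and FACS CFU-E. At that minimum Igf2bp3 and Hmga2 in all 3 stage pairs, and Zbtb7a in the CS pair, passed only through the pool where they were high. The direction of those calls was thus fixed, and the counts are not read against the shares of all genes. At a 2-fold threshold they were 3 of 9 in the PE pair and 3 of 8 in the CS pair. With a minimum of 3 UMIs they were 1 of 9 between PE-low and FACS BFU-E (Sox6) and 2 of 9 between PE-high and FACS CFU-E (Hmga2 and Igf2bp2), and without cells with other-type markers 0 of 7 between PE-high and FACS CFU-E. In the order FACS, PE and CS stage pair, PE-low over FACS BFU-E and PE-high over FACS CFU-E, all genes past the threshold numbered 472 of 3147, 325 of 3182, 425 of 2781, 18 of 3157 and 16 of 3137 at 50 CPM, and 5246 of 13060, 5364 of 13653, 5241 of 12435, 2748 of 13618 and 2598 of 12739 at 3 UMIs. Of 7262, 7253, 6900, 7440 and 6971 genes they were 833, 598, 778, 48 and 46 at 2-fold, and 994, 765, 794, 52 and 52 with the whole interval past 1.5-fold. In the last 2 comparisons they were 301 of 7460 and 281 of 6982 after thinning, and 56 of 6921 in the last without cells with other-type markers. Mean over cells and median-of-ratios scaling moved none of these counts by over 1.5 times. Of the 45 log2 ratios of the genes between pools (9 genes, 5 comparisons), 15 moved out of their counting interval without cells with other-type markers, 5 after thinning, 1 with the mean over cells and 0 with median-of-ratios scaling, and 0 past 1.5-fold changed direction. Depth limits the genes at a few UMIs, Sox6 in the earlier and Igf2bp2 in the later pools.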
